A study of Mus musculus with 9 samples.

Results

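The 34 genes described here encode the machinery of DNA replication and cell division. They were taken by symbol from a list of names, and all 34 were found among the 23944 genes counted. All 34 also passed the filter on low counts that left 15834 genes for testing. By role, 24 of them act in mitosis: 7 kinases and cyclins, 3 genes of the spindle checkpoint, 6 genes of centromeres and chromosomes, and 8 genes of the spindle and of cytokinesis. The other 10 act in replication, with 7 genes of the replicative helicase and its clamp and 3 genes of nucleotide supply. RNA was sequenced from left lungs of wild type adult mice in a model of lung transplantation, with 3 libraries in each of 3 groups. Naive lungs came from C57BL/6 mice labelled as controls. Cold-ischemia grafts were C57BL/6 lungs stored at 0 °C for 24 h, placed in Balb/C recipients and reperfused for 2 h. Shock grafts had the same storage and reperfusion, and their C57BL/6 donors had first been held for 4 h in hypovolemic shock, at a mean arterial pressure of 15 ± 5 mmHg, and had recovered for 20 h. Both kinds of graft lay in a recipient of another strain, so RNA of recipient blood cells can be part of a graft library and of no naive library.

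A cell that enters the cycle first licenses its origins of replication, where a ring of the subunits Mcm2 to Mcm7 is loaded as the replicative helicase. Pcna then clamps the polymerases to the template, while Rrm1, Rrm2 and Tyms supply deoxynucleotides. The genes of mitosis are transcribed later in the cycle, when cyclins A and B switch on Cdk1. Transcripts of the first kind are under control of the E2F factors and those of the second under the MuvB complex, which binds a short element called the CHR, often near a CCAAT box bound by NF-Y. The adult lung is a quiescent organ in which few cells divide at any time.

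The promoters are shown because the mitotic and the replication genes differed in the elements they carry and, as given further on, in how they varied among the libraries. Whether the elements had a part in that variation was not tested. RefSeq promoter windows of 300 bases (250 before and 50 after the start, build GRCm38.p6) were matched by symbol for 29 of the 34 genes, as 32 windows. Ccna2, Aurkb, Kif20a, Tpx2 and Mcm4 had no entry. Exact matches were sought on both strands for the CHR as TTTGAA, for E2F as TTTCCCGC or TTTGGCGC, and for NF-Y as CCAAT. The 88 matches included no overlapping pair. In the windows below, written 5′ to 3′ on the strand of the gene, capitals mark these matches on either strand.
Ccnb2, chr9:70421505-70421804, minus strand: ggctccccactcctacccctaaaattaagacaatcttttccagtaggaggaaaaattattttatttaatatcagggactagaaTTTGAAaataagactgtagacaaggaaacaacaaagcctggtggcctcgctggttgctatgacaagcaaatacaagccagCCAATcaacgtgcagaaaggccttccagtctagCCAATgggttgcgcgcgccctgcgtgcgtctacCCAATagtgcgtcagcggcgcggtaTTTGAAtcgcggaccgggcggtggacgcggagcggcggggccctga
Top2a, chr11:99024140-99024439, minus strand: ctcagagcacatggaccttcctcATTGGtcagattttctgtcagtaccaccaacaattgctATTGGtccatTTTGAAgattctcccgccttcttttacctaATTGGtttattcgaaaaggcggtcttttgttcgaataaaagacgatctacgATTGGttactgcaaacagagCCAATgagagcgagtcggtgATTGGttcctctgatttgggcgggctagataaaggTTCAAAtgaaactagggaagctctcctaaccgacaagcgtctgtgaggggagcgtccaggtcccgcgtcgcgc
Mki67, chr7:135716330-135716629, minus strand: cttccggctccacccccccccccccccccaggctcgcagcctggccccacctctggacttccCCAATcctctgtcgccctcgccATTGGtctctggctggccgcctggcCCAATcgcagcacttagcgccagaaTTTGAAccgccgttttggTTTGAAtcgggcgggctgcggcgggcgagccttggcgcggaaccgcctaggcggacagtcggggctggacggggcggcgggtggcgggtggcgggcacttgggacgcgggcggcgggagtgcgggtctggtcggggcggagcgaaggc
Mcm3, chr1:20820263-20820562, minus strand: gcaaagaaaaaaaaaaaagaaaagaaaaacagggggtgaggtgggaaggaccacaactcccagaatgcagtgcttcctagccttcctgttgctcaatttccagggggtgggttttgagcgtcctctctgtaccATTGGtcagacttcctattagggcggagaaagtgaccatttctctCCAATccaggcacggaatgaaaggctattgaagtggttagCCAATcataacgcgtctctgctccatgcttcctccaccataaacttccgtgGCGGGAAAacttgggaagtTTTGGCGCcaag
Mcm6, chr1:128359656-128359955, minus strand: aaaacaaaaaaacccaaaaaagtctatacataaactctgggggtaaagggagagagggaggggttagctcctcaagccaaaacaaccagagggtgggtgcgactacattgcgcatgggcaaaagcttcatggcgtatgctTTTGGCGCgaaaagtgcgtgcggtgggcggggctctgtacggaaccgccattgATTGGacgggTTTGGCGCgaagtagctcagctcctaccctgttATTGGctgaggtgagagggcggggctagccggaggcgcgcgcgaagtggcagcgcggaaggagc
Mcm7, chr5:138171834-138172133, minus strand: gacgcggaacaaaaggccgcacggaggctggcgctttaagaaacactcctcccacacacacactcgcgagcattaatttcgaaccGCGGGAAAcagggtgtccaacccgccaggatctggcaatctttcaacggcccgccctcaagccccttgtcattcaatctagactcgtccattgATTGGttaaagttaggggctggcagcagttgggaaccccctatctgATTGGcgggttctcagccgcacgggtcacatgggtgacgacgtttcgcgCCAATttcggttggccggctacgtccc
Ccnb2, Top2a and Mki67 stand for the mitotic genes and each hold the CHR and CCAAT. Mcm3, Mcm6 and Mcm7, which moved in opposite directions in the grafts, each hold an E2F match in the window shown, and a second window of Mcm7 holds none.

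The CHR was found in 17 of 22 windows of mitotic genes (77.3%), in 1 of 10 windows of replication genes (10%, Mcm2) and in 17.9% of all 32851 windows. By gene it was present in 15 of 20 mitotic genes and absent from those of Birc5, Cenpe, Ccnb1, Nusap1 and Bub1. The E2F letters were found in 4 of 10 windows of replication genes (40%, those of Mcm3, Mcm5, Mcm6 and Mcm7), in 0 of 22 windows of mitotic genes and in 1.56% of all windows. CCAAT was present in 29 of the 32 windows (90.6%), against 37.4% of all. These are matches of letters and not measured sites of binding.

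Counts per library ran from 18913487 to 34986276, with naive replicate 3 the deepest and naive replicate 2 the shallowest. Levels below are CPM, counts scaled to library sizes adjusted by the TMM method. Differences are log2 fold changes ± standard error from edgeR's quasi-likelihood test, and a gene was called where its Benjamini-Hochberg adjusted p over all 15834 genes was under 0.05. Each library is labelled as a left lung with a code of its own, and p-values measure the spread between these lungs. The labels of all 3 naive and 0 of 6 graft libraries cite another record, and with naive lungs on 1 side only, a batch cannot be told apart from the groups. The titles and the authors' deposited tables place 2 graft libraries in opposite groups, cold-ischemia replicate 2 and shock replicate 3. Groups here are those of the titles, and all 6 grafts against naive lungs does not depend on that choice. Markers of alveolar type 2 cells, the lung's surfactant makers, summed to between 21650 and 31950 CPM in the 9 libraries, so each carried the signature of lung.

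Across the 6 grafts and 3 naive lungs, 5 of the 34 genes changed. Mki67, Pcna and Mcm3 rose in the grafts, and Mcm6 and Mcm7 fell. Of all genes tested 22.1% rose and 18.7% fell (40.8% in all), so the share of the 34 that changed was below the background. Many mitotic genes had few reads and wide intervals, so a gene without a call may still have changed. These 5 were also the only members whose 6 graft libraries all lay on 1 side of the 3 naive libraries, which held in 20.9% of all genes on the higher side and 20% on the lower. The median log2 fold change was -0.16 for the 34 genes, -0.23 for the 24 mitotic genes and -0.01 for the 10 replication genes, beside -0.04 for all genes. In whole tissue, fewer cells of a type and less RNA per cell cannot be told apart.

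**Figure D1:**
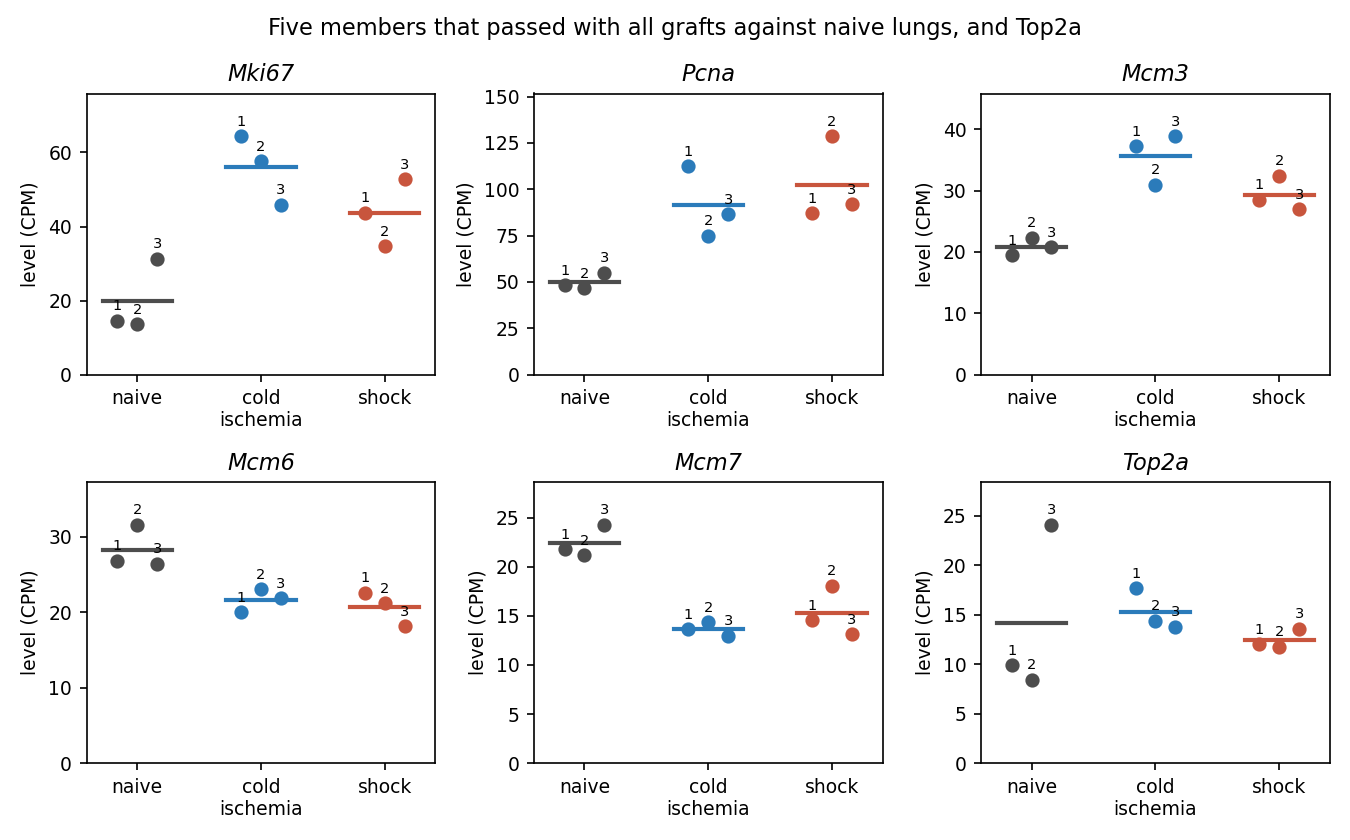
CPM of the 5 genes that changed and of Top2a in each library, on axes that start at 0. Points are libraries with their replicate number, and the line is the mean of the group. All 6 grafts lie above the naive lungs for Mki67, Pcna and Mcm3 and below them for Mcm6 and Mcm7, while for Top2a naive replicate 3 is above every graft.

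Mki67, whose protein coats mitotic chromosomes and is the usual marker of cycling cells, had the largest change of the 34. It lies on chromosome 7 (mm10, 135689788 to 135716379, minus strand). Its level was 14.5, 13.6 and 31.3 CPM in naive replicates 1 to 3. In the cold-ischemia grafts it was 64.3, 57.6 and 45.9 CPM. In the shock grafts it was 43.7, 34.6 and 52.9 CPM. The lowest graft, shock replicate 2, stood only slightly above the highest naive lung. The log2 fold change over all grafts was 1.33 ± 0.28 (95% interval 0.70 to 1.95, adjusted p = 0.00312, edgeR). In cold-ischemia grafts alone it was 1.49 ± 0.31 (adjusted p = 0.00426) and in shock grafts 1.14 ± 0.31 (adjusted p = 0.0133). The call in shock grafts was lost without naive replicate 1 or naive replicate 2, with adjusted p of up to 0.0587, and the direction stayed the same.

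None of the other 23 mitotic genes passed in all grafts. Together they had 80.4, 69.8 and 146 CPM in naive replicates 1 to 3, 108.2, 92.0 and 97.7 CPM in the cold-ischemia grafts and 79.6, 77.2 and 89.2 CPM in the shock grafts. Every graft therefore lay inside the range set by the naive lungs. Per length, in the authors' FPKM, the ratio of Mki67 to Top2a was 0.674 to 0.836 in naive lungs and 1.53 to 2.08 in grafts. The ratio of Mki67 to each of 7 more mitotic genes (Ccnb1, Ccna2, Cdk1, Birc5, Aurkb, Cenpf and Kif11) was likewise higher in each of the 6 grafts than in each of the 3 naive lungs. To Aurkb, for instance, it was 1.29 to 1.58 in naive lungs and 4.19 to 7.77 in grafts. The partners were picked from the 23 without a rule. These ratios share the reads of Mki67, which in CPM was already higher in every graft, so their separation adds no support of its own. How far the other side moved differed between them. The mean level of Mki67 per length was 2.26 FPKM in naive lungs and 4.59 FPKM in grafts. That of Aurkb was 1.55 and 0.799 FPKM, without a call in all grafts. Those of Cenpf (0.449 and 0.228 FPKM), Ccna2 (1.455 and 0.838 FPKM) and Cdk1 (1.14 and 0.671 FPKM) were also lower in grafts, uncalled. Means moved less for Top2a (3.11 and 2.47 FPKM), Ccnb1 (0.925 and 0.906 FPKM), Birc5 (0.585 and 0.567 FPKM) and Kif11 (1.02 and 0.948 FPKM). FPKM has no correction for composition. In CPM, Ccnb1 (2.005 and 2.425), Birc5 (1.69 and 2.03) and Kif11 (4.26 and 4.91) had higher means in grafts, uncalled. Aurkb, Cenpf, Ccna2 and Cdk1 stayed lower, and Top2a was at 14.1 and 13.9.

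Markers of some other cells moved with these groups. The 8 neutrophil markers summed to 49.8 to 79.3 CPM in naive lungs and 974 to 2880 CPM in grafts, and all 8 rose. The granulocyte precursor list summed to 7.12 to 14.8 CPM in naive lungs and 126 to 323 CPM in grafts. All 7 of its tested genes rose, and Ms4a3 had no read in any naive library. Erythroid markers summed to 21.4 to 214 CPM in naive lungs and 155 to 967 CPM in grafts (5 of 6 rose and 1 fell), and those of B cells to 79.5 to 106 CPM and 33.9 to 52.9 CPM (5 of 6 fell). Monocyte markers summed to 196 to 236 CPM in naive lungs and 272 to 486 CPM in grafts (3 of 7 rose and 2 fell), and plasma cell markers to 463 to 508 CPM and 678 to 753 CPM (1 of 5 tested rose). Of the 6 mesothelial markers 5 fell and 1 rose, with a median log2 fold change of -3.24, though their sum was 323 to 380 CPM in naive lungs and 371 to 495 CPM in grafts. Of the 8 endothelial markers 4 fell and 1 rose. Other lists had sums that overlapped between naive lungs and grafts and few calls. They were those of T cells (2 of 8 rose), alveolar macrophages (1 of 8 rose and 1 fell) and alveolar type 2 cells (1 of 8 fell). Lists of club and ciliated cells and of fibroblasts overlapped as well, each with 0 of 6 called in all grafts. In shock grafts alone 3 of 6 fibroblast markers fell and 0 rose against naive lungs. Their sums were 921 to 1614 CPM in shock grafts and 1700 to 4242 CPM in naive lungs. In cold-ischemia grafts 0 of 6 were called. The part of these cells in the results on Mki67 and the other genes was not tested.

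**Figure D2:**
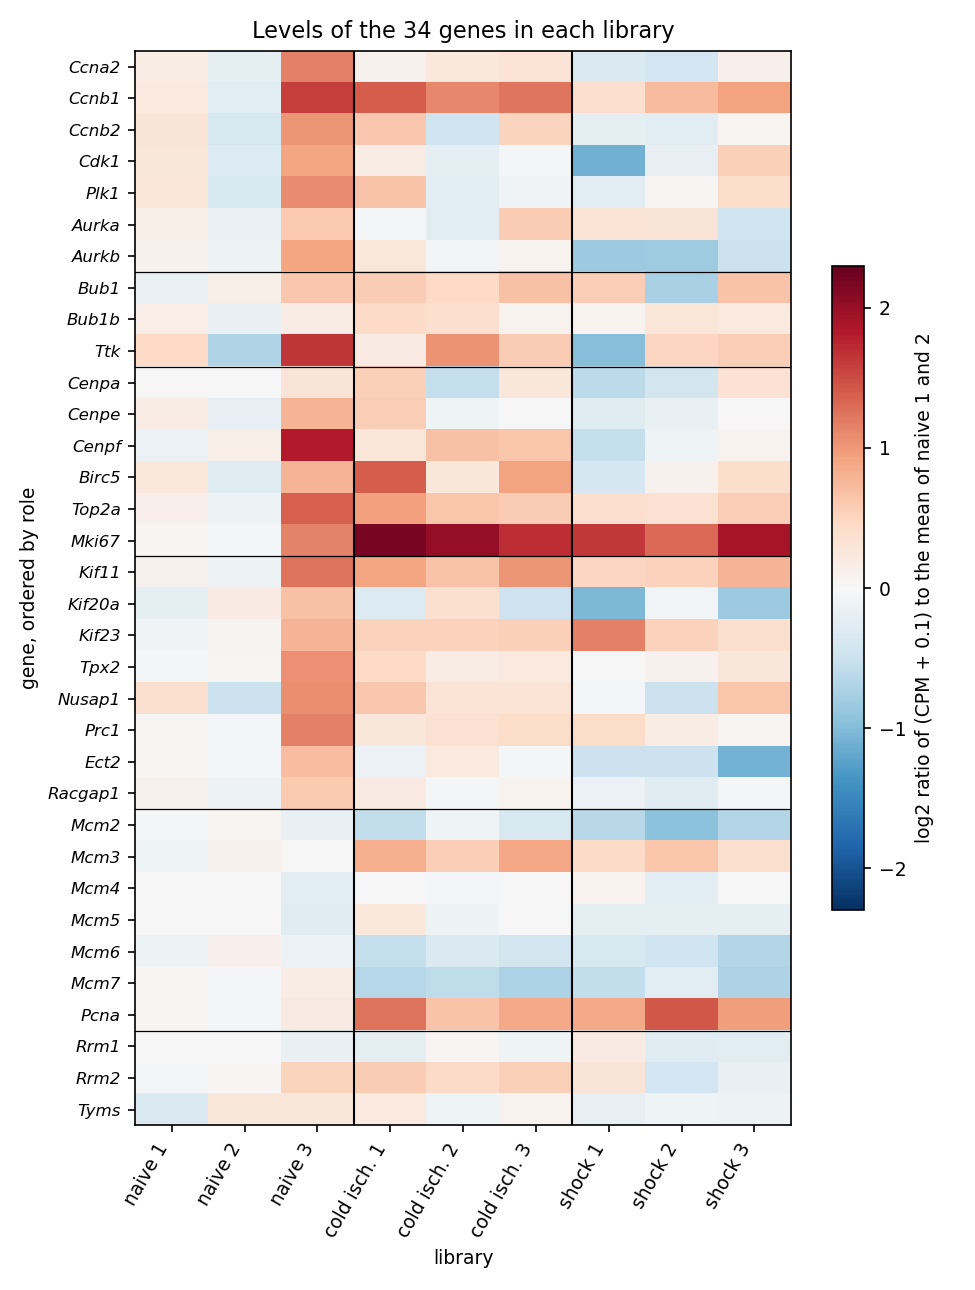
Each row is a gene, ordered by role, and each column a library. Colour is the log2 ratio of its CPM + 0.1 to the mean of naive replicates 1 and 2, red above and blue below. The column of naive replicate 3 is red at the mitotic genes and near white at most replication genes, and the row of Mki67 is red in every graft.

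The naive lungs differed among themselves at the mitotic genes. Naive replicate 3 was the highest of the 3 naive libraries at 24 of 24 mitotic genes, at 3 of 10 replication genes and at 39.8% of all genes tested. Its ratio to the mean of the other naive lungs had a median of 1.95 over the mitotic genes, 0.949 over the replication genes and 1.00 over all genes. At 18 of the 24 mitotic genes it was the highest of all 9 libraries, which held at 14.5% of all genes. Top2a, the topoisomerase that untangles chromosomes, was at 9.93 and 8.41 CPM in naive replicates 1 and 2, at 24.1 CPM in replicate 3 and between 11.8 and 17.7 CPM in the grafts. Cenpf, a protein of the kinetochore, was at 2.09, 2.53 and 8.47 CPM in the naive replicates and between 1.55 and 3.73 CPM in the grafts. In the same library fibroblast markers summed to 4242 CPM, against 1700 and 2625 CPM in naive replicates 1 and 2 and 921 to 2374 CPM in grafts. Erythroid markers summed to 214 CPM in it, against 60.8 and 21.4 CPM in naive replicates 1 and 2, and its count total was the largest of the 9. Whether these had a part in it was not tested.

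Without this library, 6 members rose in all grafts, among genes of which 18.7% rose. Ccnb1 (1.05 ± 0.35, adjusted p = 0.0441), Kif11 (0.76 ± 0.24, adjusted p = 0.0324) and Top2a (0.60 ± 0.20, adjusted p = 0.0414) joined Mki67, Pcna and Mcm3. With it, Ccnb1 was at 0.25 ± 0.40, Kif11 at 0.20 ± 0.29 and Top2a at -0.03 ± 0.29. The median of the mitotic genes went from -0.23 to 0.23 and that of the 34 from -0.16 to 0.12. The signs of these medians thus depended on 1 naive library. Without naive replicate 1 the medians were -0.36 and -0.28, and without naive replicate 2 they were -0.42 and -0.31.

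Of the 7 kinases and cyclins that drive entry into mitosis, 0 passed in all grafts against naive lungs, and 6 of 7 estimates were below 0. Ccnb1, a B-type cyclin, had 1.37, 0.950 and 3.69 CPM in the naive replicates and 1.55 to 3.22 CPM in the grafts. Ccna2, the A-type cyclin, was at -0.50 ± 0.31 (95% interval -1.18 to 0.18), and Cdk1, the kinase that both partner, at -0.46 ± 0.36 (-1.25 to 0.32). Intervals of this width cover a loss of more than 1 log2 unit as well as no change. The other B-type cyclin Ccnb2 (-0.35 ± 0.35), the mitotic kinase Plk1 (-0.37 ± 0.35) and the spindle pole kinase Aurka (-0.13 ± 0.29) did not pass. Counts behind these genes were low, with as few as 38 reads in a library for Ccna2 and 23 for Cdk1. Ccna2 shares 510 exon bases with Exosc9 on the opposite strand, and the sources used here do not give the strand of the libraries. Exosc9 was at 10.8 CPM in naive lungs and 12.3 CPM in grafts (0.20, adjusted p = 0.272, edgeR).

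Aurkb, the kinase of the chromosomal passenger complex, passed in shock grafts and in neither cold-ischemia grafts nor all grafts. It was at 2.17, 1.85 and 3.84 CPM in the naive replicates, 2.40, 1.93 and 2.12 CPM in the cold-ischemia grafts and 1.09, 1.10 and 1.40 CPM in the shock grafts. All 3 shock grafts were below the other 6 libraries. Against naive lungs the change was -1.14 ± 0.34 in shock grafts (adjusted p = 0.0205, edgeR) and -0.30 ± 0.32 in cold-ischemia grafts (adjusted p = 0.535). Between the graft groups it was -0.84 ± 0.34 (adjusted p = 0.671), so a difference between them was not shown. The fall against naive lungs lost its call without naive replicate 3, without shock replicate 1 or 2 and with the grouping of the tables (highest adjusted p = 0.0968).

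The 3 genes of the spindle checkpoint, which holds anaphase until every chromosome is attached, gave 0 calls in the 4 comparisons. Bub1b was the steadiest mitotic gene, at 7.06 to 8.98 CPM in naive lungs and 8.45 to 10.8 CPM in grafts (0.20 ± 0.16, 95% interval -0.15 to 0.54). Bub1 (0.20 ± 0.31) had 1.495 CPM in shock replicate 2 and 3.61 to 4.201 CPM in the other 5 grafts. Ttk had the lowest mean level per length of the 34 genes, 0.320 FPKM in naive lungs and 0.199 FPKM in grafts. In CPM it was at 0.226 to 1.54 CPM in naive lungs and 0.167 to 0.984 CPM in grafts. With as few as 4 reads in a library, its interval ran from -1.65 to 0.80.

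Among the genes of centromeres and chromosomes only Mki67 passed. Cenpa, the histone variant that marks the centromere, was at -0.11 ± 0.28 in all grafts, Cenpe, a motor of the kinetochore, at -0.30 ± 0.27 and Cenpf at -0.69 ± 0.42. Birc5, the survivin subunit of the passenger complex, was at 0.25 ± 0.40. Cenpa stood at 4.88 to 6.09 CPM in naive lungs, a narrow range, and at 3.22 to 7.30 CPM in grafts. Its 6 graft values divided as the deposited tables group them, which is taken up below.

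Of the 8 genes of the spindle and of cytokinesis 0 passed in all grafts. Ect2, which activates RhoA at the cleavage furrow, fell in shock grafts (-0.98 ± 0.30, adjusted p = 0.0237, edgeR). It had 3.29, 3.08 and 5.29 CPM in the naive replicates, 2.90, 3.73 and 3.09 CPM in the cold-ischemia grafts and 2.22, 2.24 and 1.45 CPM in the shock grafts. The shock grafts were again below the other 6 libraries. This call was lost in 5 of 17 other settings, including the one without naive replicate 3 and that with the grouping of the tables (highest adjusted p = 0.257). Its partners of the centralspindlin complex, Racgap1 (-0.26 ± 0.19) and Kif23 (0.33 ± 0.24), did not pass. Nor did the bipolar spindle motor Kif11, the microtubule bundler Prc1 (-0.22 ± 0.26), the spindle assembly factor Tpx2 (-0.24 ± 0.25), Nusap1 (-0.19 ± 0.34) or the mitotic kinesin Kif20a (-0.60 ± 0.33). Kif20a shares 1271 exon bases with Cdc23 on the opposite strand, which fell from 39.9 CPM in naive lungs to 21.2 CPM in grafts. Kif20a itself was at 2.81 ± 0.89 CPM in naive lungs and 1.86 ± 0.71 CPM in grafts (SD, n = 3 and n = 6). Prc1 shares 911 bases with Rccd1, and Nusap1 172 with Oip5, also on the opposite strand.

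**Figure D3:**
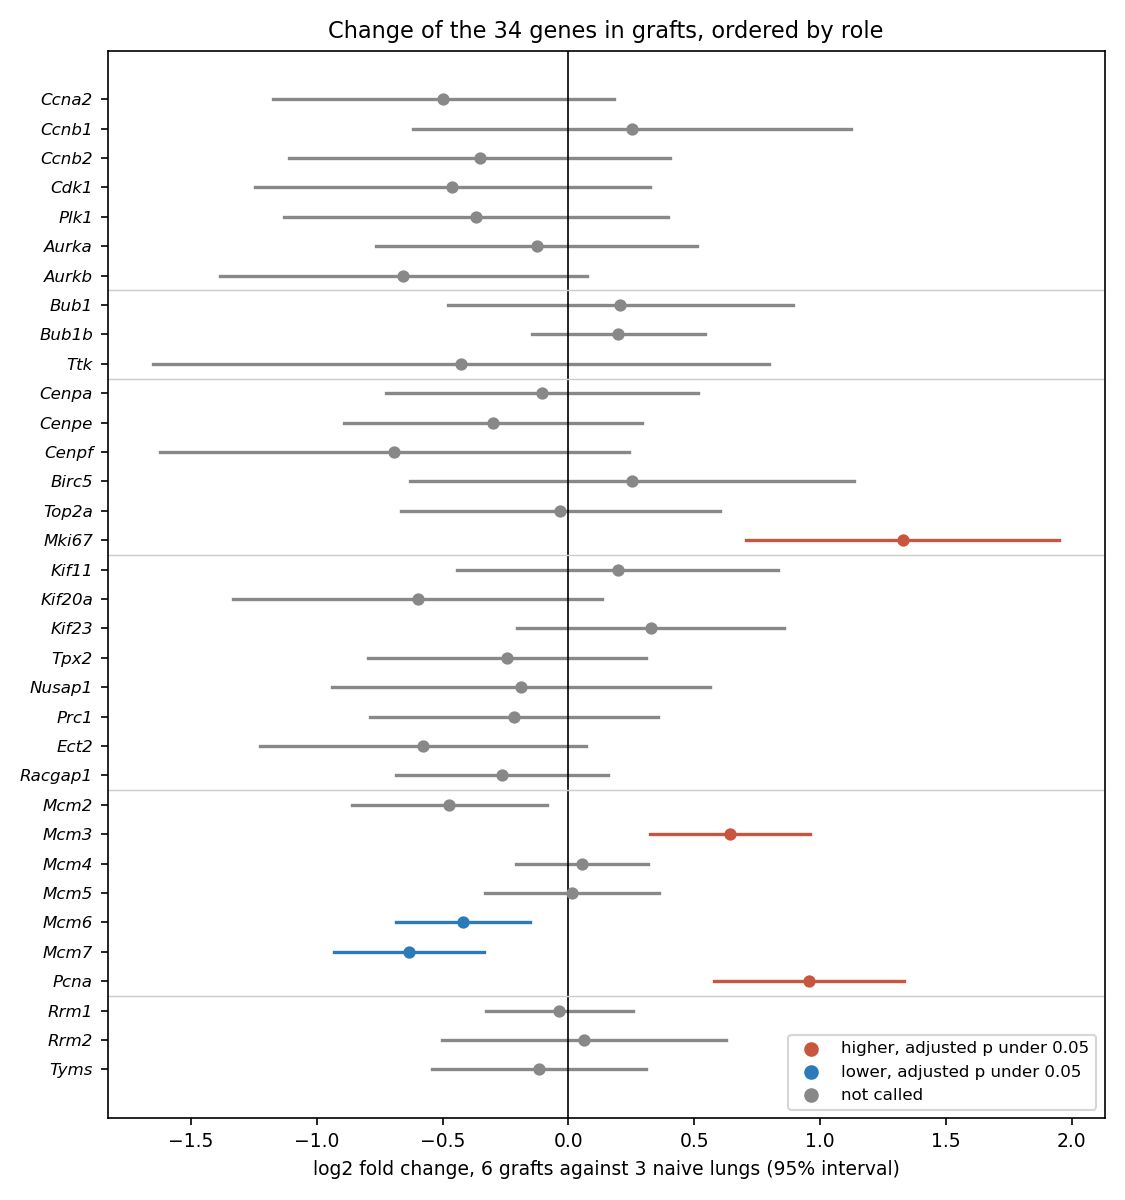
Points are log2 fold changes of 6 grafts against 3 naive lungs for the 34 genes in order of role, with bars for the 95% interval. Mki67, Mcm3 and Pcna lie above 0 and Mcm6 and Mcm7 below it, and most mitotic genes have wide intervals across 0.

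Of the 10 replication genes 4 changed, a share like the 40.8% of all genes. Pcna, the sliding clamp, lies on chromosome 2 (mm10, 132249162 to 132253314, minus strand) and had the highest level per length of the 34, with means of 38.1 FPKM in naive lungs and 59.1 FPKM in grafts. It was at 48.2, 46.6 and 54.9 CPM in the naive replicates. It reached 112.5, 74.9 and 86.4 CPM in the cold-ischemia grafts and 87.0, 128.5 and 91.9 CPM in the shock grafts. Every graft stood clear of the naive range. The change was 0.96 ± 0.17 in all grafts (adjusted p = 0.00103, edgeR), 0.87 ± 0.19 in cold-ischemia grafts (0.00617) and 1.04 ± 0.19 in shock grafts (0.00182). Pcna kept its call in each of the 3 comparisons with naive lungs under every alternative setting tried.

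The 6 subunits of the MCM ring, which act in equal numbers, did not move together. Mcm3 rose, Mcm6 and Mcm7 fell, and Mcm2, Mcm4 and Mcm5 did not pass in all grafts. Their sum was 121.1 to 134.2 CPM in naive lungs and 108.6 to 128.4 CPM in grafts, which overlapped. Their makeup differed, taken as shares of the summed FPKM within each library. That sum is another measure than the CPM sum above, and its own level is not compared here. By FPKM, Mcm3 made up 15.9% to 17.5% of the 6 subunits in naive lungs and 24.9% to 31.1% in grafts. Mcm7 made up 18.9% to 23.7% in naive lungs and 12.1% to 18.5% in grafts, and Mcm6 17.3% to 19.2% and 12.9% to 15.6%. None of these 3 shares overlapped between grafts and naive lungs, and those of Mcm2, Mcm4 and Mcm5 did.

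Mcm3 (chromosome 1, mm10, 20802968 to 20820312, minus strand) was at 19.4, 22.3 and 20.7 CPM in the naive replicates. It was at 37.2, 30.9 and 38.8 CPM in the cold-ischemia grafts and 28.5, 32.4 and 26.9 CPM in the shock grafts. The groups did not overlap, and the lowest graft was the library titled shock replicate 3. The change was 0.64 ± 0.15 in all grafts (adjusted p = 0.00437, edgeR), 0.78 ± 0.15 in cold-ischemia grafts (0.00248) and 0.49 ± 0.15 in shock grafts (0.0206). In shock grafts the call was lost without naive replicate 1, without naive replicate 3 and under upper-quartile scaling (highest adjusted p = 0.149).

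Mcm7 (chromosome 5, mm10, 138164583 to 138172422, minus strand) was at 21.8, 21.2 and 24.2 CPM in the naive replicates. It was at 13.7, 14.3 and 12.97 CPM in the cold-ischemia grafts and 14.6, 18.0 and 13.1 CPM in the shock grafts. Shock replicate 2 came nearest to the naive range without reaching it. The fall was -0.63 ± 0.14 in all grafts (adjusted p = 0.00313, edgeR), -0.71 ± 0.16 in cold-ischemia grafts (0.00639) and -0.56 ± 0.16 in shock grafts (0.0173). In shock grafts the call was lost without shock replicate 1 or 3, without naive replicate 3 and without both libraries in doubt (highest adjusted p = 0.0639). Mcm7 shares 321 exon bases with Ap4m1 and 64 with Cops6 on the opposite strand, and holds the microRNAs Mir25 and Mir93. Ap4m1, a subunit of an adaptor complex, fell as well (-0.87, adjusted p = 0.00375, edgeR), from 7.58 to 4.16 CPM, and the sources used here do not say how reads in the shared bases were counted.

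Mcm6 (chromosome 1, mm10, 128331590 to 128359664, minus strand) was at 26.8, 31.6 and 26.4 CPM in the naive replicates and 20.0, 23.04 and 21.9 CPM in the cold-ischemia grafts. In the shock grafts it was at 22.6, 21.2 and 18.2 CPM. All grafts were below all naive lungs, by a small margin. The fall was -0.42 ± 0.12 in all grafts (adjusted p = 0.017, edgeR) and its call was lost without naive replicate 2 (0.114). It was -0.39 ± 0.15 in cold-ischemia grafts (adjusted p = 0.0694) and -0.45 ± 0.15 in shock grafts (0.0306), where the call was lost in 7 of 17 other settings.

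Mcm2 fell in shock grafts (-0.70 ± 0.17, adjusted p = 0.00921, edgeR) and lost this call with the grouping of the tables only (0.0913). It was at 16.8, 17.7 and 15.3 CPM in the naive replicates, 11.6, 15.99 and 13.4 CPM in the cold-ischemia grafts and 11.1, 8.92 and 10.7 CPM in the shock grafts. In all grafts it just missed the threshold (-0.47 ± 0.18, adjusted p = 0.0502). Mcm4 (0.05 ± 0.12, 95% interval -0.21 to 0.31) and Mcm5 (0.01 ± 0.16, -0.33 to 0.36) had intervals that did not reach the estimate for Mcm6. Under upper-quartile scaling, which put the median of all genes at -0.25, they were at -0.15 and -0.19, and Mcm3 stayed higher (0.44) and Mcm7 lower (-0.84).

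The enzymes of nucleotide supply gave 0 calls in the 4 comparisons. Rrm1, the large subunit of ribonucleotide reductase, was at 29.4 to 33.0 CPM in naive lungs and 27.0 to 37.6 CPM in grafts (-0.04 ± 0.13, 95% interval -0.33 to 0.26). Rrm2, its cycle-regulated small subunit, was at 4.43 to 6.53 CPM and 3.29 to 6.80 CPM (0.06 ± 0.26). Tyms, thymidylate synthase, was at 3.92 to 5.97 CPM and 4.31 to 5.80 CPM (-0.12 ± 0.19).

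By graft group, cold ischemia and reperfusion alone gave 4 calls among the 34, Mki67, Pcna and Mcm3 higher and Mcm7 lower, where 30.6% of all genes were called. Shock grafts gave 8, the same 3 genes higher and Aurkb, Ect2, Mcm2, Mcm6 and Mcm7 lower, where 39.9% of all genes were called. Both shares were below the background, with the same limit set by genes of few reads. These comparisons share the naive libraries. In cold-ischemia grafts 6 genes were higher without naive replicate 3. In shock grafts the number lower was 3 without shock replicate 1 and 2 without shock replicate 3, without naive replicate 3 or without both libraries in doubt, and the number higher was 1 (Pcna) without naive replicate 1. The authors' deposited tables, which use the other grouping, called Mki67, Mcm3 and Pcna higher in both kinds of graft. They called Mcm2, Mcm6 and Mcm7 lower in cold-ischemia grafts and Cenpa and Mcm7 lower in shock grafts. The edgeR test with that grouping called 5 members in cold-ischemia grafts (Mcm6 and Mcm7 lower) and 5 in shock grafts (Cenpa and Mcm7 lower), where 34.8% and 46.1% of all genes were called.

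Shock of the donor was then compared with cold ischemia alone. The estimates of 31 of 34 members were below 0, with a median of -0.29. Over all genes the median was 0.01, and 7684 of 15834 were below 0. Genes measured in the same libraries can move together, so the signs of the members are not independent. By edgeR with the grouping of the tables, 25 members were below 0, and 23 were in the authors' deposited table. Without cold-ischemia replicate 1 the median was -0.18, with 29 below 0. No member passed, and no gene of the 15834 did (0% called by edgeR, 1152 genes with an unadjusted p under 0.05, and 6 called by DESeq2). Unadjusted p was under 0.05 at 4 members, Aurkb, Ect2, Mcm2 (-0.42 ± 0.17) and Rrm2 (-0.60 ± 0.25), each with adjusted p = 0.671. That number was 0 without cold-ischemia replicate 3 and 2 without cold-ischemia replicate 1, without shock replicate 2 or 3, with the grouping of the tables and with a replicate block. The widths of the intervals leave much room, as for Ccnb1 (-0.57, 95% interval -1.57 to 0.42), Cdk1 (-0.08, -1.08 to 0.91) and Mki67 (-0.36, -1.02 to 0.31). Pcna was at 0.17 (-0.25 to 0.59) and Mcm7 at 0.16 (-0.20 to 0.51).

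Markers of some other cells differed between the titled graft groups, though no gene was called between them by edgeR. Fibroblast markers summed to 1902 to 2374 CPM in cold-ischemia grafts and 921 to 1614 CPM in shock grafts, without overlap, and 3 of 6 had an unadjusted p under 0.05. Erythroid markers summed to 155 to 435 CPM and 567 to 967 CPM, again without overlap, with 2 of 6 at an unadjusted p under 0.05. All 8 neutrophil markers had estimates above 0 in shock grafts (median 0.88, 5 with an unadjusted p under 0.05), and their sums, 974 to 1901 CPM and 1473 to 2880 CPM, overlapped. So did those of monocytes, at 272 to 287 CPM and 285 to 486 CPM, with 4 of 7 at an unadjusted p under 0.05. Granulocyte precursor markers had a median of -0.66, with 4 of 7 below 0, and 8 of 8 alveolar type 2 markers were below 0. With the grouping of the tables the fibroblast sums overlapped, at 1614 to 2318 CPM in cold-ischemia grafts and 921 to 2374 CPM in shock grafts. The erythroid sums then overlapped too, at 301 to 967 CPM and 155 to 719 CPM. The part of these cells in the lower estimates of the members was not tested.

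**Figure D4:**
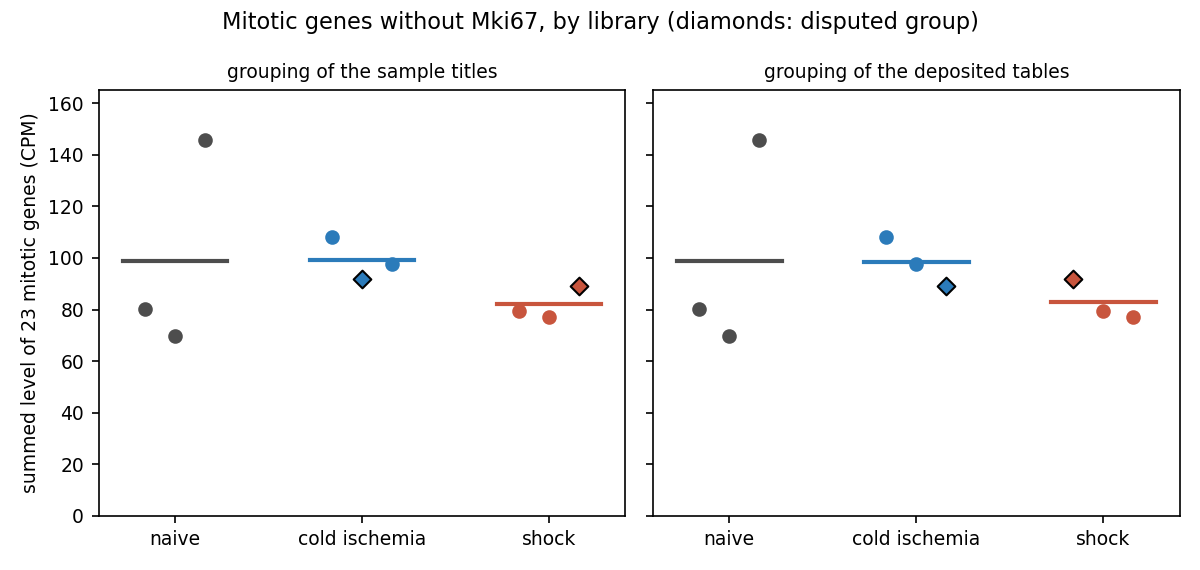
Summed CPM of the 23 mitotic genes other than Mki67 in each library, on an axis from 0, with libraries grouped as in the titles (left) and as in the deposited tables (right). Lines are group means, and diamonds mark the libraries whose group differs. The 3 cold-ischemia grafts (92.0 to 108.2 CPM) lie above the 3 shock grafts (77.2 to 89.2 CPM) on the left, and the groups overlap on the right.

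Which genes set the graft groups apart depended on which grouping was taken. With the titles, all 3 shock grafts lay below all 3 cold-ischemia grafts at 8 members, Ccnb1, Aurkb, Cenpf, Top2a, Ect2, Mcm2, Mcm5 and Rrm2, and above them at 0, where this held at 4.91% and 5.45% of all genes. With the tables it was 9 others, Ccnb2, Cdk1, Bub1, Cenpa, Cenpe, Birc5, Kif11, Tpx2 and Racgap1, with Mcm7 above, against 12.4% and 10.9% of all genes. The lists had no gene in common. Cenpa was at 7.30, 5.96 and 6.23 CPM in the libraries that the tables call cold ischemia and at 3.22, 3.69 and 3.36 CPM in those they call shock. In the authors' deposited table it was called lower in shock grafts (log2 fold change -0.78, adjusted p = 0.0185), while edgeR with the same grouping gave -0.92 ± 0.19 and adjusted p = 0.0592, where 0.783% of all genes were called. Without the 2 libraries in doubt it was at -0.94 ± 0.26 (adjusted p = 0.125). Over all genes the graft libraries nearest to each other were cold-ischemia replicate 1 and shock replicate 3, and then cold-ischemia replicate 2 and shock replicate 1, pairs that the tables place in 1 group and the titles do not.

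Genes around the members were described from 11 lists of the cell cycle, 159 genes of which 137 were tested. In all grafts 18 of these 137 rose and 27 fell, beside 22.1% and 18.7% of all genes. Of the 30 genes named by rule that were called in all grafts, 22 kept the call under each of 15 other settings. The other 8 lost it in at least 1 and at most 6, and they were Ccnd2, Ccnd3, Rbl2, E2f5, Gmnn, Samhd1, Dck and Smc2. The inhibitors of cyclin-dependent kinases divided, with 2 of 7 higher and 2 lower. Cdkn1a, which arrests cells in response to damage and stress, was at 42.8, 55.3 and 202 CPM in the naive replicates and 884 to 1167 CPM in the grafts (3.35 ± 0.46, adjusted p = 0.000172, edgeR). As at the mitotic genes, naive replicate 3 was the highest naive lung. Cdkn1b, an inhibitor of quiescent cells, fell from 88.8 ± 6.0 to 46.8 ± 6.3 CPM (SD, n = 3 and n = 6), and Cdkn2c, an inhibitor of Cdk4 and Cdk6, from 21.9 ± 1.9 to 7.38 ± 3.65 CPM.

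Of a list of 7 genes of the BTG and TOB families with Gas1 and Gas2l3, 5 rose and 1 fell. Btg1, an antiproliferative factor, was at 113 to 134 CPM in naive lungs and 428 to 547 CPM in grafts (2.00 ± 0.13, adjusted p = 9.95e-07, edgeR). Its relative Btg3 was at 39.1 to 39.4 CPM and 89.4 to 107.5 CPM (1.31 ± 0.11). Gas1, a membrane protein known from growth-arrested cells, was at 48.8 to 66.3 CPM in naive lungs and 0.548 to 8.31 CPM in grafts (-3.95 ± 0.48, adjusted p = 7.24e-05, edgeR). Gas2l3, a linker of actin and microtubules that does not belong to the BTG family, rose by 1.75 ± 0.33. It and Fbxo5 below were singled out after their values were seen.

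Of 19 tested genes of origin licensing and firing, 2 rose and 5 fell. Mcm10, a replication factor that is not part of the MCM ring, was at 0.687, 0.860 and 0.986 CPM in the naive replicates and between 3.59 and 4.81 CPM in the grafts (2.33 ± 0.23, adjusted p = 1.64e-05, edgeR). Dbf4, the activator of the kinase that fires origins, rose by 0.80 ± 0.17. Orc5, a subunit of the origin recognition complex (-0.88 ± 0.15), and Gmnn, geminin, which blocks relicensing (-0.78 ± 0.26), fell. At the replication fork 2 of 19 rose and 4 fell, with the clamp loader divided: Rfc5 was at 0.67 ± 0.14 and Rfc1 at -0.74 ± 0.14. The polymerase delta subunits Pold1 (-0.84 ± 0.20) and Pold2 (-0.80 ± 0.14) fell. In other nucleotide supply 2 of 6 rose, Samhd1, which breaks down deoxynucleotides (0.51 ± 0.13), and Dck, which salvages deoxycytidine (0.51 ± 0.16). Rrm2b, the reductase subunit of resting cells, did not pass (-0.42 ± 0.19, adjusted p = 0.1).

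**Figure D5:**
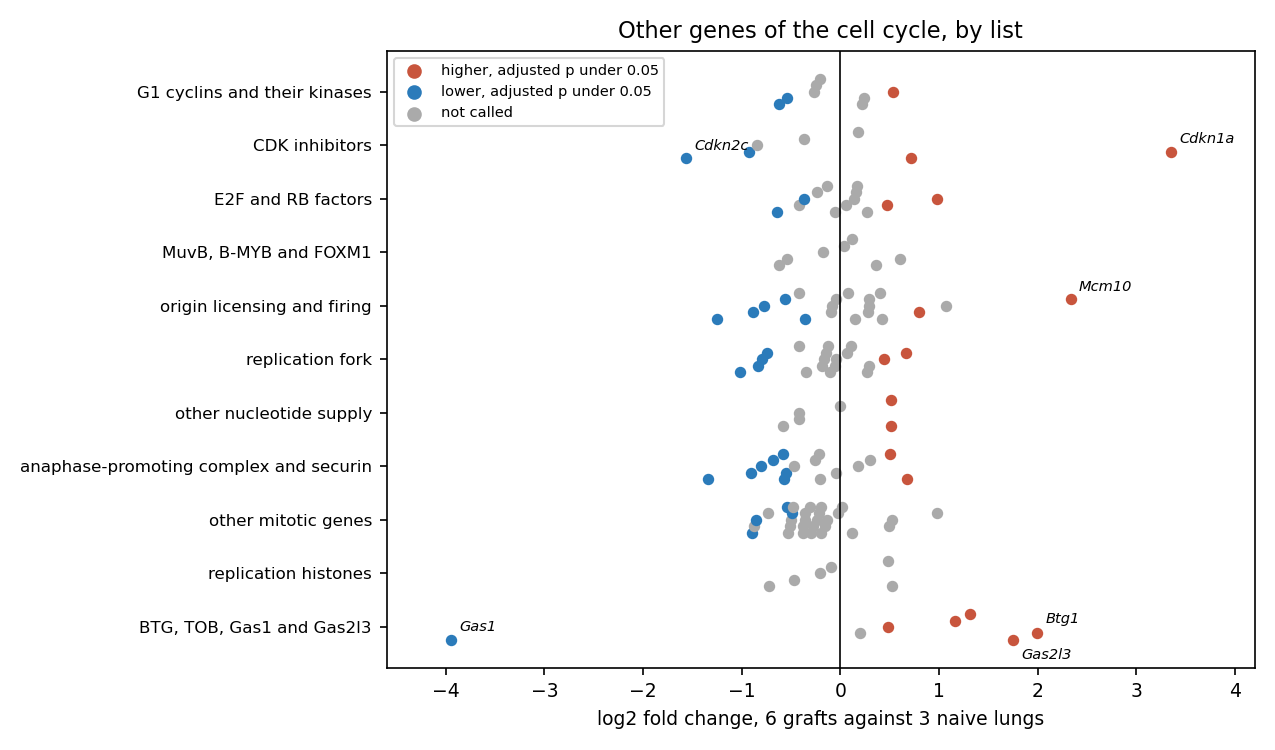
Each point is a tested gene of a list of cell cycle genes outside the 34, placed by its log2 fold change in 6 grafts against 3 naive lungs. Cdkn1a, Mcm10, Btg1 and Gas2l3 lie far to the right and Gas1 far to the left, and the MuvB and histone lists hold no called gene.

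Upstream of these genes, the G1 cyclins and their kinases had 1 of 8 higher and 2 lower. Ccnd2 rose (0.53 ± 0.17), while Ccnd3 (-0.55 ± 0.17) and Cdk4 (-0.62 ± 0.14) fell and Ccnd1 did not pass (-0.25 ± 0.27). Ccnd1 fell in shock grafts (-0.72 ± 0.20, adjusted p = 0.015, edgeR), a call lost without shock replicate 1, without naive replicate 3 and with the grouping of the tables (highest adjusted p = 0.0734). Of 13 E2F and RB genes 2 rose, E2f3 (0.98 ± 0.14) and E2f5 (0.47 ± 0.15), and 2 fell, the pocket protein genes Rbl1 (-0.65 ± 0.15) and Rbl2 (-0.37 ± 0.12). E2f1, an activator of S phase genes, was at -0.24 ± 0.35. Of the 7 MuvB, B-MYB and FOXM1 genes 0 passed by edgeR, with 3 at an unadjusted p under 0.05, and Foxm1, a driver of mitotic transcription, was at 0.60 ± 0.27 (adjusted p = 0.0965).

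Of 16 genes of the anaphase-promoting complex and its partners 2 rose and 7 fell, among the latter Cdc26 (-0.80 ± 0.13), Cdc23 (-0.91 ± 0.15), Anapc2 (-0.59 ± 0.11) and the inhibitor Fbxo5 (-1.34 ± 0.37). The activator Cdc20, itself a mitotic transcript, did not pass (-0.47 ± 0.24). Of 29 tested further mitotic genes 0 rose and 4 fell, Cdc25b, a phosphatase that activates Cdk1 (-0.90 ± 0.12), the condensin subunits Ncapd2 (-0.85 ± 0.17) and Smc2 (-0.54 ± 0.18) and the checkpoint gene Bub3 (-0.49 ± 0.13). Only 6 of the 23 replication histone genes in the tables passed the filter. Of these 0 were called by edgeR in all grafts, with 1 at an unadjusted p under 0.05, and Hist1h2bc fell in shock grafts (-0.68 ± 0.18, adjusted p = 0.0108, edgeR).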

How the data were processed

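RNA of 9 left lungs was sequenced as paired reads, per the labels' protocols. Tables for the 3 pairs of groups were deposited. Read counts per gene are whole numbers without normalization, per the file headers. The deposited FPKM are per gene length and total, without a correction for composition. They are used here for levels per length, for ratios and shares within a library and for group means of these. TMM factors were 1.13 to 1.18 in naive libraries and 0.90 to 0.97 in grafts. FPKM therefore runs lower in grafts, beside naive lungs, than CPM does. The deposited normalized signal, counts over a size factor per library, was not used. Each log2 fold change and p-value of the authors' deposited tables is credited to them where printed. STAR, HTSeq, DESeq2, edgeR, STAR-Fusion and the build mm10 are named in the submitters' processing notes, with no versions or roles. The annotation and the strand of the libraries are not given in the sources used here.

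The tables were joined by gene identifier. All 202656 counts present in a pair of tables were equal. No library repeated another within sampling noise (lowest chi-square 15.0 per degree of freedom, naive replicates 1 and 2). Genes were filtered with filterByExpr, scaled by TMM and tested two-sided in R 4.3.3 with edgeR 4.0.16 (quasi-likelihood). The 3 titled groups entered 1 fit of all 9 libraries, and all grafts against naive lungs a fit with 2 means. Alternatives were 2 other scalings, DESeq2 1.42.0, no filter, a replicate block, the grouping of the tables, only the groups compared, each library left out and, chosen after seeing the data, both disputed libraries left out. The test was tried on simulated data. Shared exon bases come from GENCODE release M21. Counting error is the only error that depth sets, and it is widest for genes with few reads.

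The 34 members and all lists were chosen with earlier results of these data known. Of the lists outside the 34, up to 3 genes with the smallest adjusted p under 0.05 per list and comparison were named, with Cdkn1a, Ccnd1, Foxm1, E2f1, Cdc20, Gmnn and Rrm2b always.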

Additional observations from a re-analysis of the deposited data

Results flagged for a closer look

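In 5 of 34 genes a graft library lay far from the other 5 grafts by Dixon's test at the 95% level, which flags about 1 in 20 groups by chance. Bub1, of the spindle checkpoint, was at 1.495 CPM in shock replicate 2, with the next lowest graft at 3.607 CPM. Cenpe, a kinetochore motor, was at 3.9 CPM in cold-ischemia replicate 1, with the next highest at 2.585 CPM. Kif23, of the central spindle, was at 10.42 CPM in shock replicate 1, with the next highest at 6.787 CPM. Shock replicate 2 had the lowest Mcm4 of the grafts (25.31 CPM, next 29.72) and the highest Mcm7 (18.04 CPM, next 14.56). It thus accounts for 3 of the 5, and it also lies apart from the other grafts on the second principal component of all genes (-62.3, against -11.1 to 29.6).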

How the results depend on the processing

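Pcna was higher, Mki67 and Mcm3 were higher in all grafts and in cold-ischemia grafts, and Mcm7 was lower in those same comparisons under every alternative tried. Of 2244 values of members under alternatives, 2197 stayed on the same side of the threshold, 27 lost a call and 19 gained one. The last was a call whose sign was opposite to that of an uncalled main estimate. It was Top2a in all grafts without naive replicate 3 (0.60, against -0.03 in the main fit). Its estimate was -0.29 to 0.60 when any 1 library was left out. Of 2376 values of the named genes outside the 34, 132 lost a call and 23 gained one. Of their calls, 11 of 25 in cold-ischemia grafts and 10 of 30 in shock grafts were lost in at least 1 of 17 settings, Samhd1 in 11 and Dck in 12. In 139 values of members, all but that one uncalled, the sign differed. In cold-ischemia grafts 2 members were lower under upper-quartile scaling, with the grouping of the tables and with only the groups compared, and leaving out a library gave 3 to 6 higher. In shock grafts the number lower was 9 under upper-quartile scaling and 2 with the grouping of the tables or without the disputed libraries. Leaving out a library gave 2 to 5 lower and 1 to 3 higher. In all grafts it gave 1 to 3 lower and 3 to 6 higher. Between the graft groups 6 genes were called by DESeq2, 124 with the grouping of the tables and 39 without the disputed libraries, and 0 members in each. Upper-quartile scaling put the median of all genes at -0.25, -0.22 and -0.28 in all, cold-ischemia and shock grafts, and the share of called genes that were higher at 35.6%, 39.3% and 36.5%, against 54.2%, 57.1% and 55.1% under TMM. Causes were not tested. Same-numbered libraries did not deviate together (correlations -0.394 to 0.096), so the numbers do not pair them. With a replicate block the number of members lower in shock grafts was 3, the number with an unadjusted p under 0.05 between the graft groups was 2, against 4 without it, and no other count of members called changed. Mitotic genes with few reads have wide intervals at this depth.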
